A study of Mus musculus with 6 samples.

Results

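Corticosteroid receptors and glucocorticoid-responsive genes were followed here through the hippocampal transcriptome of mice on a ketogenic diet, which is rich in fat and so poor in carbohydrate that the liver makes ketone bodies for fuel. The set holds 9 genes, taken by symbol from a table of 53715 Ensembl genes, and all 9 had enough counts to test, among 16478 tested genes. It comprises the receptor genes Nr3c1 and Nr3c2, the hormone-activating enzyme gene Hsd11b1, and the responsive genes Fkbp5, Sgk1, Tsc22d3, Zbtb16, Klf9 and Cebpd. The animals were male C57BL/6J mice, an inbred strain, aged 2 to 3 months and with no transgene or engineered allele named. Of the 6 mice, 3 ate a control diet and 3 a ketogenic diet for 3 weeks, and each gave 1 library from whole hippocampus (control 1, 2 and 3 and ketogenic 1, 2 and 3).

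Corticosterone, the main glucocorticoid of mice, acts through both receptors, which bind the hormone in the cytoplasm as complexes with Hsp90 chaperones and then enter the nucleus as transcription factors. The mineralocorticoid receptor has the higher affinity and is largely occupied at resting hormone levels, while the glucocorticoid receptor is filled at the daily peak and during stress. The hippocampus is known for expressing both receptors strongly. The classical DNA element that both recognise is an inverted repeat of the letters AGAACA and TGTTCT around a 3-base spacer, and genes near such elements can rise within hours of a hormone pulse.

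A copy of that element lay in a promoter of Sgk1, one of the best known corticosteroid targets. Promoter windows from RefSeq on GRCm38.p6, from 250 bases before to 50 bases after a gene start, were available for 6 of the 9 genes, in 13 windows. The search, on both strands, was for AGAACA, any 3 bases and TGTTCT. It matched 1 of these 13 windows and 3 of the 32851 windows of all genes (0.00913%). The matching Sgk1 window, at chr10:21993640-21993939 on the plus strand, is shown with the 15-base match in capitals, which starts at position -189 relative to that start. A Tsc22d3 window, at chrX:140600473-140600772 on the minus strand, is shown beside it because Tsc22d3 varied most among the members. Its capitals mark the single 6-base element TGTTCT, which occurs on either strand in 19.0% of all windows and is part of the longer motif.
Sgk1: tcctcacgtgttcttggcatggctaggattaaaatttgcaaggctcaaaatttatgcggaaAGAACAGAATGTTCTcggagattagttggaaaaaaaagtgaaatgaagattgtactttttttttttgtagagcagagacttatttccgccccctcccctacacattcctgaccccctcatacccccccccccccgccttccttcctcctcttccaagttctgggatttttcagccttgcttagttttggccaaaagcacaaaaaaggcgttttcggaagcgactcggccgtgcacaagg
Tsc22d3: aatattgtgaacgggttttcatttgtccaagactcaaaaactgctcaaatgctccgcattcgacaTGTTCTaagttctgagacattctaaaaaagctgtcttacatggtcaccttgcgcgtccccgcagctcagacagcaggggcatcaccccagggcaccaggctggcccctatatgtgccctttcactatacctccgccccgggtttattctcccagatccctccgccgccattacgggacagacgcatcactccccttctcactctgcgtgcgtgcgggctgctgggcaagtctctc

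A looser motif, in which G, any base, ACA, any 3 bases, TGT, any base and C follow each other and which every copy of the first one also holds, occurred in 0.475% of all windows. Of 41 further glucocorticoid-induced genes, 37 had windows, 44 in all. The looser motif matched 3 of these 44 windows (6.82%), those of Mt1 (GGACATGATGTTC), Map3k6 (GCACAGGCTGTTC) and Txnip (GCACACCGTGTCC). By gene this was 8.11% of the 37, against 0.537% of all genes with windows. The stricter motif matched 0 of the 44 windows. The 6-base element TGTTCT matched 2 of them (4.55%), against 19.0% of all windows. Sgk1 has 6 windows in the table, and the gene counts do not separate its start sites. A match describes these letters only and does not show binding.

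Each library held between 16832240 and 18357792 gene counts. Levels are CPM, counts per 1000000 on library sizes scaled by TMM (edgeR's trimmed mean of log ratios), as mean ± SD over the 3 libraries of a diet. Changes are log2 fold changes of ketogenic over control ± their standard error. A gene is said to have risen or fallen only where the p-value of edgeR's quasi-likelihood test, adjusted by Benjamini-Hochberg over the 16478 genes, was under 0.05. Hippocampal markers were present, among them the granule cell gene Prox1 at between 75.1 and 162.8 CPM, whereas 14 retina markers, checked because the extraction protocol names retina, summed to between 19.2 and 28.7 CPM in any library. Control libraries differed in tissue content. Transcripts of 12 choroid plexus markers summed to 9958, 5183 and 1195 CPM in control 1, 2 and 3 and to between 153 and 230.5 CPM in the ketogenic libraries.

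The diet comparison asked which of these genes differed in the hippocampus. Of the 9 members 4 fell, namely Nr3c2, Hsd11b1, Klf9 and Cebpd, and 5 did not pass the test. None rose, and none had a higher level at an unadjusted p under 0.05, with 0 rises also in DESeq2. Over all tested genes 9.67% passed, 5.05% upward and 4.62% downward. In 4 of the 9 members, the same that fell, the control and ketogenic values did not overlap, a separation found in 27.6% of all tested genes. The median log2 fold change of the members was -0.16, and that of all tested genes -0.01. With control 1 and 2 both left out, the number of members past the threshold was 1, and it was also 1 without control 2, ketogenic 2 or ketogenic 3.

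**Figure D1:**
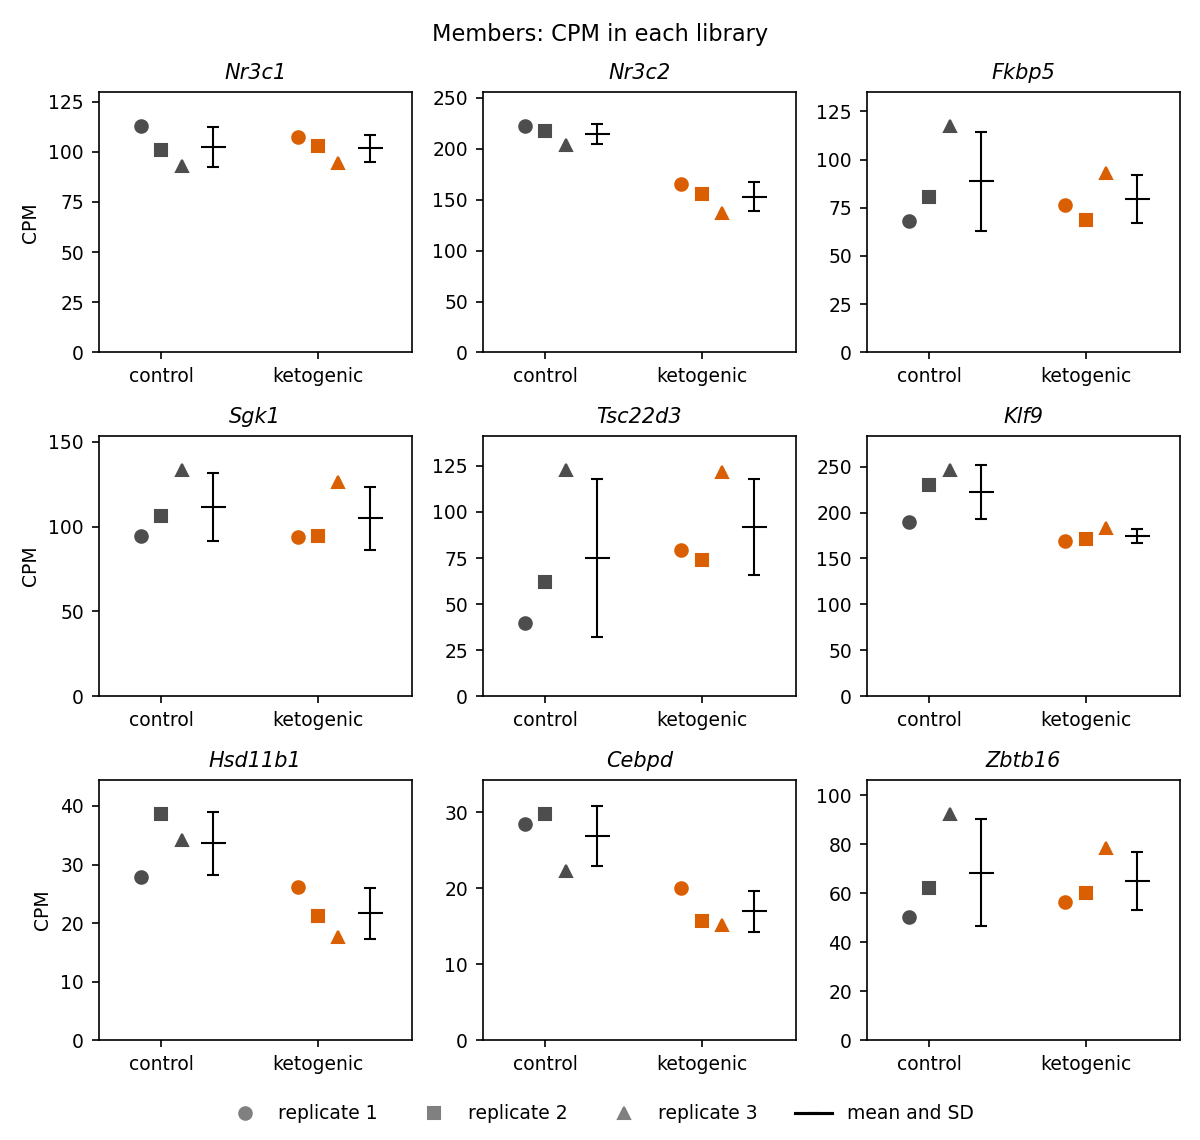
CPM of the 9 genes (vertical axes, from 0) in each control (grey) and ketogenic (orange) library, with the replicate shown by the symbol and the mean and SD of each diet beside it. The points of Nr3c2, Hsd11b1, Klf9 and Cebpd do not overlap between the diets, while Tsc22d3 ranges from 40.0 to 123 CPM within the control diet alone.

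Of the receptors, Nr3c2 fell and Nr3c1 did not pass the test. Nr3c2 encodes the mineralocorticoid receptor (ENSMUSG00000031618, chromosome 8, 76899442 to 77245012, plus strand, coordinates as deposited, taken to be on GRCm38). Control libraries had 222, 218 and 204 CPM and ketogenic libraries 166, 156 and 137 CPM. All ketogenic libraries were thus below all control libraries, and the mean went from 215 ± 9.63 to 153 ± 14.5 CPM. The log2 fold change was -0.49 ± 0.08, or 0.712-fold (adjusted p = 0.00401). The call was kept in all 15 single alternatives, where the log2 fold change ran from -0.55 to -0.42 and the adjusted p reached 0.0297, and lost with control 1 and 2 both left out (-0.41, adjusted p = 0.106).

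Nr3c1, the glucocorticoid receptor gene (ENSMUSG00000024431, chromosome 18, 39410545 to 39491301, minus strand), stood at 113, 101 and 93.1 CPM with the control diet and at 108, 103 and 94.6 CPM with the ketogenic diet. The diets overlapped throughout this range. Its log2 fold change of -0.01 ± 0.08 had a 95% interval from -0.20 to 0.18 (adjusted p = 0.966), so that a shift of the size seen in Nr3c2 lay outside the interval.

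Per length, Nr3c2 was the more abundant receptor transcript in every library. The ratio of Nr3c2 to Nr3c1, in FPKM (fragments per kilobase of gene, scaled to library size), was 2.26, 2.47 and 2.51 in the control libraries and 1.77, 1.74 and 1.66 in the ketogenic libraries. The ketogenic ratios were all lower, with means of 2.41 ± 0.136 and 1.72 ± 0.0541. On the log2 scale the difference was -0.49, with an exact two-sided permutation p = 0.10 (n = 3 per diet), the smallest that 3 against 3 libraries allow. Leaving out any single library moved this difference between -0.53 and -0.46.

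**Figure D2:**
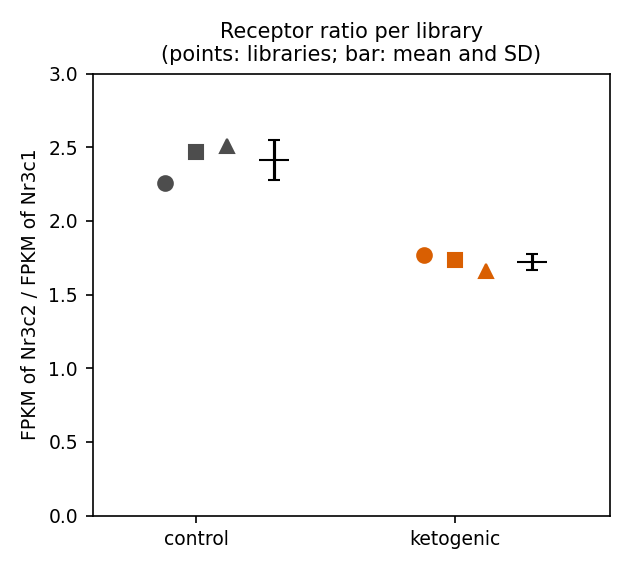
Ratio of Nr3c2 to Nr3c1 FPKM (vertical axis, no unit) in each library of the control and ketogenic diets, with mean and SD beside the points. Control ratios sit between 2.26 and 2.51 and ketogenic ratios between 1.66 and 1.77.

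Nr3c2 is known for strong expression in dentate granule cells and field CA2. Here 7 of 11 markers of dentate granule cells fell and the other 4 did not pass, with summed levels of 1433 to 1621 CPM in control and 828 to 1110 CPM in ketogenic libraries (1109.5 at the highest). Of 12 CA2 and CA3 markers 7 fell and none rose, and their sums went from 1355 to 1446 CPM down to 942 to 1054 CPM. This set pools both fields and does not show CA2 alone. In it Amigo2 (0.11, adjusted p = 0.727) and Pcp4 (-0.71, 0.123) did not pass, while Rgs14 (-0.75, 0.0094) and Map3k15 (-1.86, 0.0032) fell. Of 8 CA1 and pyramidal markers 3 rose and 2 fell, with sums of 951 to 1138 CPM in control and 1052 to 1146 CPM in ketogenic libraries. No astrocyte, microglial or endothelial marker passed, and 8 of 12 interneuron and 8 of 12 mural and fibroblast markers rose. Of 12 markers of myelinating oligodendrocytes 9 fell and none rose, with sums of 5276 to 6694 CPM in control and 2813 to 3847 CPM in ketogenic libraries, and all 12 choroid plexus markers fell. The part of any of these cell types in the lower levels of Nr3c2 and of the other members that fell was not tested. In bulk tissue, fewer cells of a type and less RNA per cell cannot be told apart.

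Hsd11b1, the hormone-activating gene, also fell. Its enzyme regenerates active corticosterone from the inert 11-dehydrocorticosterone inside cells (ENSMUSG00000016194, chromosome 1, 193221634 to 193264075, minus strand). Control libraries had 27.9, 38.7 and 34.2 CPM and ketogenic libraries 26.1, 21.1 and 17.6 CPM. The lowest control and the highest ketogenic library were close, at 27.9 and 26.1 CPM. The log2 fold change was -0.63 ± 0.16, or 0.644-fold (adjusted p = 0.0309). In 7 of the 15 alternatives the call was lost, the adjusted p being 0.132 when control 2 was left out, 0.0501 for control 3, 0.128 for ketogenic 2 and 0.0954 for ketogenic 3. Lamb3, a laminin gene on the opposite strand that overlaps it, had 6.53% as many counts, and reads of the overlap could not be assigned because the strand setting is not known.

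**Figure D3:**
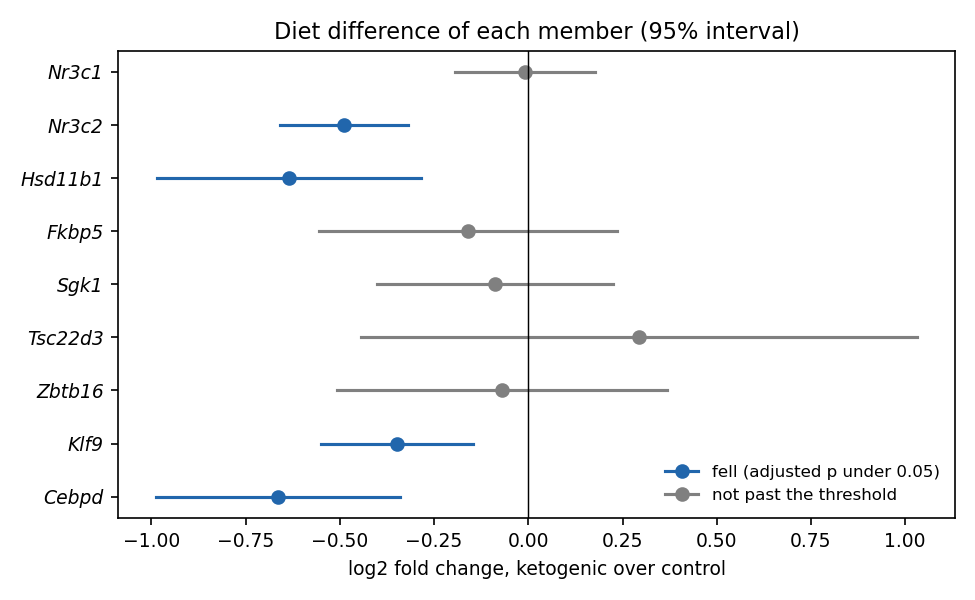
Log2 fold change of ketogenic over control (horizontal axis) for each member, with points for the estimate and lines for the 95% interval from edgeR. Nr3c2, Hsd11b1, Klf9 and Cebpd (blue) passed the threshold with intervals below 0. The interval of Tsc22d3 runs from -0.44 to 1.03.

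Of the 6 responsive genes, Cebpd and Klf9 fell with the ketogenic diet and the other 4 did not pass the test. Cebpd encodes C/EBP delta, a basic leucine zipper transcription factor induced by glucocorticoids and inflammatory signals (ENSMUSG00000071637, chromosome 16, 15887286 to 15891031, plus strand). It stood at 28.5, 29.8 and 22.3 CPM with the control diet and at 20.1, 15.7 and 15.2 CPM with the ketogenic diet, all of the latter being lower. The log2 fold change was -0.66 ± 0.15, or 0.631-fold (adjusted p = 0.0189). The call was lost without control 2 (adjusted p = 0.0881), ketogenic 2 (0.10) or ketogenic 3 (0.0686). Spidr, a gene on the opposite strand that overlaps Cebpd, had 19.3% as many counts.

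Klf9 encodes a Kruppel-like transcription factor that responds to glucocorticoids and to thyroid hormone (ENSMUSG00000033863, chromosome 19, 23141226 to 23166911, plus strand). It was the most abundant member per length, at 60.3 ± 9.86 FPKM over the 6 libraries. In CPM the control libraries had 189.7, 229.9 and 247 and the ketogenic libraries 169, 171 and 183. The gap between the diets was small, from 183 to 189.7 CPM. Its log2 fold change of -0.35 ± 0.09 was the smallest of the 4 that passed (adjusted p = 0.0384). Leaving out any library but control 1 ended the call, the adjusted p being 0.138 when control 2 was left out, 0.0855 for control 3, 0.0860 for ketogenic 1, 0.155 for ketogenic 2 and 0.0617 for ketogenic 3. With control 1 and 2 both left out it was -0.50 (adjusted p = 0.0336).

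Fkbp5, Sgk1, Tsc22d3 and Zbtb16 did not pass the test. Fkbp5 encodes an Hsp90 co-chaperone that lowers the hormone affinity of the glucocorticoid receptor and is itself induced by it (ENSMUSG00000024222, chromosome 17, 28399095 to 28517524, minus strand). Control libraries had 68.2, 80.5 and 117 CPM and ketogenic libraries 76.3, 68.8 and 93.0 CPM. The log2 fold change was -0.16 ± 0.18 with a 95% interval from -0.55 to 0.23 (adjusted p = 0.660), and it turned to 0.095 without control 3.

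Sgk1, whose promoter element is printed above, encodes serum- and glucocorticoid-regulated kinase 1 (ENSMUSG00000019970, chromosome 10, 21882184 to 21999903, plus strand). Its levels were 94.2, 106 and 133 CPM with the control diet against 93.6, 94.7 and 126 CPM with the ketogenic diet. The values overlapped almost entirely. The log2 fold change was -0.09 ± 0.14, with an interval from -0.40 to 0.22 (adjusted p = 0.775), and it turned to 0.062 without control 3.

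Tsc22d3 encodes GILZ, the glucocorticoid-induced leucine zipper protein, an anti-inflammatory mediator (ENSMUSG00000031431, chromosome X, 140539528 to 140600659, minus strand). Its levels were 40.0, 61.8 and 123 CPM with the control diet against 79.6, 74.0 and 122 CPM with the ketogenic diet. Control 3 and ketogenic 3 were nearly equal and far above the rest, while control 1 was the lowest of all. The highest control library was 3.07 times the lowest, and the log2 fold change between the diets was 0.29 ± 0.33 (adjusted p = 0.668). This value depended on which library was left out. Without control 3 it was 0.85 and passed (adjusted p = 0.0365), without control 1 it was -0.01, and without ketogenic 3 it was 0.035. With control 1 and 2 both left out it was -0.42.

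Zbtb16 encodes PLZF, a zinc finger transcription factor that is strongly induced by glucocorticoids in several cell types (ENSMUSG00000066687, chromosome 9, 48654297 to 48836222, minus strand). Control libraries had 50.2, 62.2 and 92.5 CPM and ketogenic libraries 56.5, 60.2 and 78.6 CPM. The log2 fold change of -0.07 ± 0.20 (adjusted p = 0.882) turned to 0.21 without control 3 and to 0.022 without ketogenic 1.

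Several members shared an order of libraries within each diet. In Tsc22d3, Zbtb16, Fkbp5, Sgk1 and Klf9, control 3 was the highest and control 1 the lowest control library, and ketogenic 3 was the highest ketogenic library. Levels in control 3 over control 1 were 3.07-fold for Tsc22d3, 1.84-fold for Zbtb16, 1.72-fold for Fkbp5, 1.42-fold for Sgk1 and 1.30-fold for Klf9. Ketogenic 3 over the mean of ketogenic 1 and 2 was 1.59-fold for Tsc22d3, 1.35-fold for Zbtb16, 1.34-fold for Sgk1, 1.28-fold for Fkbp5 and 1.08-fold for Klf9. Nr3c1, Nr3c2 and Cebpd had the lowest level of each diet in these same libraries, control 3 and ketogenic 3. The order was noticed in the members and then counted elsewhere, and it has no test. Members, lists and order were chosen with earlier results of these data known, so the counts below are no independent check.

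**Figure D4:**
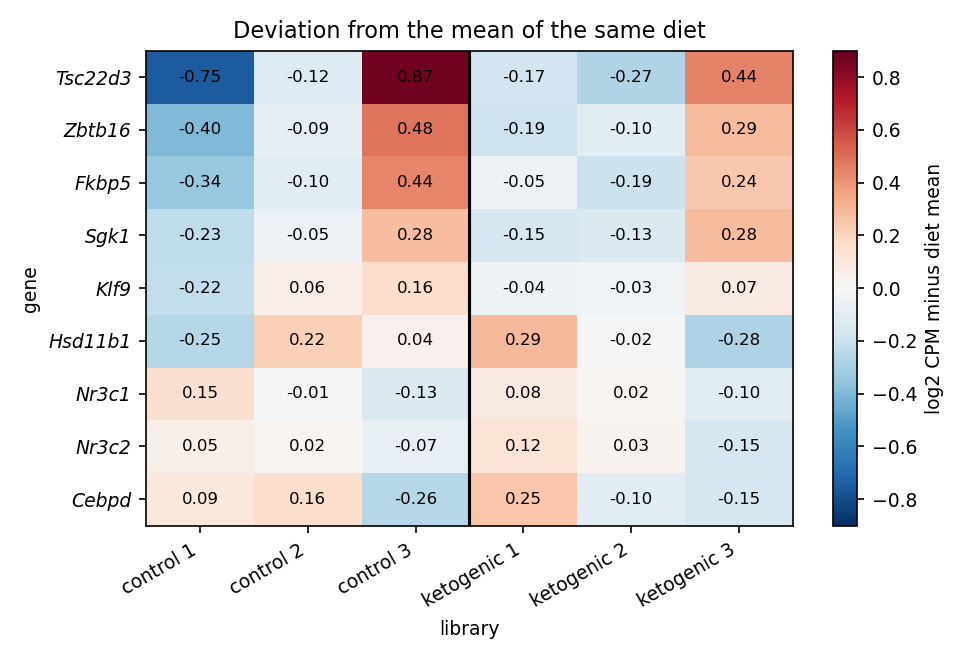
Deviation of each library's log2 CPM from the mean of its own diet (colour and printed value), for the 9 genes in rows and the 6 libraries in columns. Tsc22d3, Zbtb16, Fkbp5, Sgk1 and Klf9 are above their diet mean in control 3 and ketogenic 3, and Nr3c1, Nr3c2 and Cebpd are below it there.

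The same order occurred in 20 of 40 tested genes of a list of further glucocorticoid-induced genes (50%), against 1339 of all 16478 tested genes (8.13%). Examples, named after their values were seen, were Hif3a, with 4.26, 9.16 and 13.7 CPM in the control and 6.68, 6.94 and 19.2 CPM in the ketogenic libraries, and Plin4, a lipid droplet protein gene, with 9.58, 10.6 and 18.3 CPM and 4.2, 6.66 and 19.8 CPM. Mfsd2a, a lipid transporter gene of the blood-brain barrier, had 15.5, 16.0 and 27.9 CPM and 20.5, 19.6 and 34.5 CPM. Other targets, also named after their values were seen, did not follow it. Per1, a clock gene with glucocorticoid-response elements, had 100.5 CPM in ketogenic 3 against 106 and 122 CPM in ketogenic 1 and 2. Dusp1, a phosphatase gene, had its lowest control level, 18.9 CPM, in control 3.

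Marker levels were read for the same order. It occurred in 4 of 12 mural and fibroblast markers, 3 of 12 interneuron markers, 2 of 10 endothelial markers, 2 of 12 astrocyte markers and 1 of 10 microglial markers. It occurred in none of the tested choroid plexus, myelin, dentate, CA2 and CA3, pyramidal or blood markers. The control part of the order alone held in 26 of 40 further induced genes and 3459 of 16478 tested genes. It also held in 5 of 5 blood, 6 of 10 endothelial, 7 of 12 mural and fibroblast and 6 of 12 astrocyte markers. It held in 0 of 12 choroid plexus and 1 of 11 dentate markers. Ketogenic 3 was highest in 28 of those 40 genes and 6004 of 16478 tested genes. This was also so for 22 of 27 receptor chaperones and coregulators and 8 of 12 interneuron markers, but 0 of 11 dentate markers. Choroid plexus markers had the reverse order in the control libraries, with the sums given above. Mural and fibroblast markers summed to 241, 314 and 345 CPM in the control and 531, 529.6 and 607 CPM in the ketogenic libraries, and endothelial markers to 334, 354 and 346 CPM and 367, 354 and 354.5 CPM. Blood markers summed to 26.3, 86.1 and 101 CPM in the control libraries but were lowest in ketogenic 3, at 37.8 CPM. The part of these cells in the order was not tested.

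As a measure of that spread, the SD of log2 CPM within a diet was 0.64 for Tsc22d3, which is above 95.7% of all tested genes. It was 0.36 for Zbtb16, 0.32 for Fkbp5 and 0.25 for Sgk1 (above 83.2%, 79.7% and 70.8% of tested genes), against a median of 0.152 over all tested genes. Hsd11b1 and Cebpd, which did not share the order, had 0.26 and 0.22, and Klf9, which did, had 0.145. Nr3c1 and Nr3c2 varied less, at 0.12 and 0.11. Standard errors of the diet difference ran from 0.08 for Nr3c2 to 0.33 for Tsc22d3.

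By level per length, the members ran from Klf9 through Nr3c2 (28.2 ± 5.45 FPKM over the 6 libraries), Sgk1 (21.9 ± 3.60), Tsc22d3 (19.1 ± 7.6), Nr3c1 (13.6 ± 1.00), Fkbp5 (13.1 ± 2.93), Zbtb16 (12.5 ± 2.98) and Hsd11b1 (6.45 ± 1.84) to Cebpd (5.81 ± 1.65). Klf9 exceeded Nr3c2, and Zbtb16 exceeded Hsd11b1, in all 6 libraries. All other neighbours in this order had overlapping ranges and changed places in at least 1 library.

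The further glucocorticoid-induced genes split between the diets, with 2 that rose, 4 that fell and 34 that did not pass among 40 tested, a share past the threshold of 15.0% against 9.67% of all tested genes. Their median log2 fold change was 0.11. Ctgf, which encodes a matricellular growth factor and is also a deep cortical layer marker, rose from 10.4 ± 2.99 to 30.6 ± 12.3 CPM (1.56 ± 0.27, adjusted p = 0.00665). Angptl4, an inhibitor of lipoprotein lipase that is also a fasting target of PPAR receptors, rose from 1.75 ± 0.658 to 4.47 ± 0.981 CPM (1.35 ± 0.31, adjusted p = 0.0218), a call lost without control 2, ketogenic 2 or ketogenic 3 (up to 0.0831).

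Among those that fell, Rasd1, the dexamethasone-induced Ras gene, had 37.3, 44.3 and 62.0 CPM in the control and 26.5, 21.6 and 26.6 CPM in the ketogenic libraries. Its log2 fold change was -0.94 ± 0.17 (adjusted p = 0.00746), a call lost without ketogenic 2 (0.0513). Cebpb, the C/EBP beta relative of Cebpd, fell from 23.0 ± 2.41 to 14 ± 1.5 CPM (-0.72 ± 0.12, adjusted p = 0.00656). Sesn1, a stress-responsive sestrin gene, fell from 81.8 ± 5.36 to 59.9 ± 3.33 CPM (-0.45 ± 0.08, adjusted p = 0.00573). Arrdc3, an arrestin-domain adaptor gene, fell from 51.7 ± 3.96 to 41.2 ± 2.83 CPM (-0.33 ± 0.09, adjusted p = 0.0398). Its call was lost with any single library left out and on either log2 FPKM scale (up to 0.180). The most abundant of the list, Glul and Rhob, which encode glutamine synthetase and a small GTPase, stood at -0.17 and -0.15 (adjusted p = 0.144 and 0.208). With control 1 and 2 both left out, Rasd1 alone of the list passed (-1.32, adjusted p = 0.00719).

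**Figure D5:**
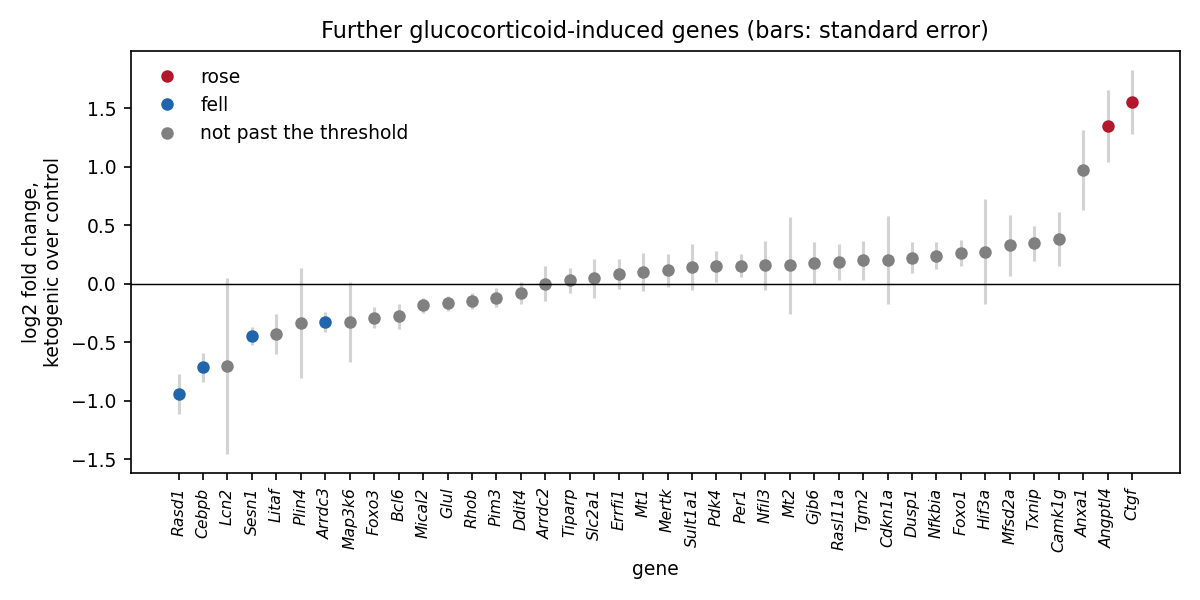
Log2 fold change of ketogenic over control (vertical axis) with its standard error for the 40 tested genes of the further glucocorticoid-induced list, ordered by value. Ctgf and Angptl4 (red) rose, Rasd1, Cebpb, Sesn1 and Arrdc3 (blue) fell, and the other 34 (grey) did not pass the threshold.

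Among the genes of receptor chaperones and cofactors, most did not pass the test. Of 27 tested chaperones and coregulators 1 rose and 2 fell (11.1% past the threshold, against 9.67% of all tested genes), with a median of -0.03. Ncoa3, a steroid receptor coactivator, fell from 57.8 ± 2.22 to 45.3 ± 0.930 CPM (-0.35 ± 0.07, adjusted p = 0.0120). Ppargc1a, the coactivator PGC-1 alpha, rose from 40.6 ± 3.69 to 54.9 ± 5.85 CPM (0.44 ± 0.10, adjusted p = 0.0222). The most abundant, Hsp90ab1 and Hspa8, stood at -0.11 and -0.06 (adjusted p = 0.375 and 0.784). The calls of Ncoa3 and Ppargc1a were lost without ketogenic 2, with adjusted p up to 0.108. That of Ppargc1a was also lost without control 2 or ketogenic 3 and on either log2 FPKM scale. Neither was past the threshold with control 1 and 2 both left out, where edgeR gave adjusted p of 0.185 for Ncoa3 and 0.184 for Ppargc1a.

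Of 10 tested genes of steroid synthesis, conversion and export 1 rose and 1 fell, with a median of -0.05. The share past the threshold was 20.0%, against 9.67% of all tested genes. Cyp7b1, which hydroxylates oxysterols and neurosteroids, fell from 22.3 ± 1.46 to 16.0 ± 1.84 CPM (-0.48 ± 0.12, adjusted p = 0.0290). Akr1c14, a 3-alpha-hydroxysteroid dehydrogenase gene of neurosteroid synthesis, rose from 1.29 ± 0.261 to 2.78 ± 0.444 CPM (1.1 ± 0.27, adjusted p = 0.0308). Abcb1a, which encodes an efflux pump of the blood-brain barrier, and Por, the cytochrome P450 reductase gene, were the most abundant and stood at 0.06 and -0.05 (adjusted p = 0.781 and 0.787). Cyp7b1 missed the threshold without control 2, ketogenic 2 or ketogenic 3 (up to 0.130). Akr1c14 kept its call only when control 3 was the library left out (elsewhere up to 0.146). With control 1 and 2 both left out, both missed it (0.256 and 0.353).

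Among 9 tested genes of stress-axis peptides and their receptors 2 rose and none fell (22.2% past the threshold, against 9.67% of all tested genes). At an unadjusted p under 0.05 in edgeR 6 were higher and 1 lower, against 1927 and 1876 of all 16478 tested genes. DESeq2 gave 4 rises and 0 falls, and the median was 0.53. Adcyap1, which encodes the neuropeptide PACAP, rose from 2.55 ± 1.51 to 10.5 ± 3.83 CPM (2.04 ± 0.41, adjusted p = 0.0131), a call lost without control 2 or ketogenic 2 (up to 0.0744). Oxtr, the oxytocin receptor gene, rose from 6.84 ± 1.26 to 14.9 ± 3.83 CPM (1.12 ± 0.20, adjusted p = 0.00783). With control 1 and 2 both left out, neither passed (adjusted p = 0.123 for Adcyap1 and 0.136 for Oxtr). The most abundant, the PACAP receptor gene Adcyap1r1 and the CRH-binding protein gene Crhbp, stood at 0.25 and 0.53 (adjusted p = 0.0632 and 0.105). Crhbp is known from interneurons, whose markers summed to 666 to 683 CPM in control and 898 to 1165 CPM in ketogenic libraries, with 8 of 12 that rose. Their part in these levels was not tested.

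For each member that fell, the 3 tested genes of at least 10 CPM with the most similar profile were sought. Similarity was the root-mean-square distance of centred log2 CPM over the 6 libraries. Genes with clone or model names were left out of the search. Nr3c2 was nearest to Cacng8, an AMPA receptor auxiliary subunit gene (distance 0.027), Plekhg5 (0.034) and Ncdn (0.041). Klf9 was nearest to Rnf19a (0.038), Acap2 (0.047) and B3galt5 (0.048). Hsd11b1 was nearest to Jdp2 (0.052), Dock10 (0.070), which is among the dentate markers, and Rph3a (0.082). Cebpd was nearest to Trim59 (0.040), Ppp1r1a (0.062) and Tmem63a (0.071).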

How the data were processed

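Hippocampal RNA was extracted with Trizol and sequenced after TruSeq library preparation, per the labels' protocols. For 6 libraries the authors deposited 1 table of raw counts and 1 of FPKM, both by Ensembl gene. CASAVA, featureCounts 1.5.0-p3, DESeq2 1.10.1 and mm9 are named in the submitters' processing notes, with aligner and strand setting not given in the sources used here. Of 53620 identifiers shared with GENCODE M21 on GRCm38, 97.1% start and end at the same bases, as do 6 of the 9 members, so coordinates were taken as GRCm38. The deposited FPKM values equal count over gene length over 1 library size, which was 0.987 to 1.02 times the total count.

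The test of the counts was edgeR 4.0.16 in R 4.3.3 (filterByExpr, TMM, quasi-likelihood F-test, no covariate), adjusted over 16478 genes at 0.05. The median standard error of a log2 fold change was 0.13. Standard errors are the log2 fold change over the square root of F. No label says that mice were housed or collected separately, so p-values measure the spread between these libraries. Libraries of a diet differed by more than counting noise (chi-square per degree of freedom 6.21 to 18.6).

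The members, lists and library order were chosen with earlier results of these data known. Named genes are the members, list genes past the threshold (up to 6 by smallest p) and the 2 most abundant of each list. Exceptions are stated, and 1 gene is not reported here. The alternatives were scaling by RLE or upper quartile, filtering at a mean of 1 CPM or not at all, DESeq2 1.42.0, limma-voom (limma 3.58.1), log2 FPKM with pseudocounts of 1 and 0.1 in limma, the replicate number as a block and each library left out. Leaving out control 1 and 2 together was chosen after seeing the data. The steps were tested on simulated data.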

Additional observations from a re-analysis of the deposited data

How the results depend on the processing

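Nr3c2 kept its direction and call in all 15 single alternatives, and the Nr3c2 to Nr3c1 difference stayed negative, from -0.53 to -0.46 with a library left out and -0.49 in counts. Libraries of a diet differed by more than counting noise, and the standard errors, 0.08 for Nr3c1 and 0.14 for Sgk1, exceed the differences estimated for these genes. The causes of the shifts below were not tested.

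Over all genes, 1593 passed, with 2462 without a filter (30524 tested), 1060 on log2(FPKM + 1) values, 538 to 1877 with a library left out and 289 with control 1 and 2 both left out. Of the 9 members, 4 passed, with 2 on either FPKM scale and 1 to 4 with a library left out. Without control 3 the members past the threshold were 1 that rose, Tsc22d3, and 2 that fell, Nr3c2 and Cebpd. The further induced genes numbered 6, with 11 without a filter, 3 to 9 with a library left out and 1 without control 1 and 2. The cofactors numbered 3, with 0 to 4 with a library left out and 0 without control 1 and 2. The steroid genes numbered 2, with 0 to 2 with a library left out and 0 without control 1 and 2. The stress-axis genes numbered 2, with 5 without a filter, 4 with DESeq2, 1 to 4 with a library left out and 0 without control 1 and 2.

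Leaving out a library moved the log2 fold change of Nr3c1 between -0.073 and 0.066, Nr3c2 between -0.55 and -0.42, Fkbp5 between -0.32 and 0.095, Sgk1 between -0.24 and 0.062, Tsc22d3 between -0.010 and 0.85, Zbtb16 between -0.25 and 0.21, Klf9 between -0.45 and -0.27, Hsd11b1 between -0.80 and -0.51, and Cebpd between -0.80 and -0.58. With log2 FPKM at pseudocounts of 1 and 0.1, Klf9 missed the threshold at -0.34 and -0.34 (adjusted p = 0.0803 and 0.0779), as did Hsd11b1 at -0.55 and -0.63 (0.0647 and 0.0616). Nr3c1 stood at 0.00027 with upper-quartile scaling. With control 1 and 2 left out the values were 0.13 for Nr3c1, -0.41 for Nr3c2, -0.66 for Hsd11b1, -0.40 for Cebpd and -0.50 for Klf9. They were -0.42 for Tsc22d3, -0.56 for Fkbp5, -0.35 for Sgk1 and -0.51 for Zbtb16. The lone control library was assumed to vary like the others.

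Deviations of same-numbered libraries had correlations of -0.0227, 0.0603 and 0.0286 across genes, against -0.117 to 0.0672 for libraries of different numbers. No label states a pairing, and correlations over all genes cannot decide whether some genes shared one. With a replicate block 1504 genes and 3 of the 9 members passed, Hsd11b1 missed the threshold at -0.64 (adjusted p = 0.0516), and the steroid genes numbered 1. No other member's call changed under the block. Standard errors with it were 0.165 for Tsc22d3, 0.0895 for Zbtb16 and 0.0659 for Sgk1, against 0.332, 0.197 and 0.141 without it. That of Hsd11b1 was 0.165 with the block and 0.157 without it.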
